A study of Mus musculus with 12 samples.

Results

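The expression of 8 genes that mark fetal-like or regenerating epithelium was examined in mouse intestinal tumor organoids with and without re-expressed SMAD4. The genes, Anxa1, Clu, Il33, Spp1, Gja1, Msln, Il1rn and Ccnd1, were taken by name from the 24906 genes listed in each expression table. The rule itself uses no measured value, but the list was chosen with earlier results of these data known. All 8 were listed in both tables and all 8 passed the filter of a mean of at least 0.5 FPKM (fragments per kilobase of a transcript, relative to library depth) in each. The organoids came from tumors of the small intestine of mice with the genotype Smad4KO;BRAFV600E/+, which lost Smad4 and carried an activated BRAF allele in the epithelial cells where Villin-CreERT2 is active. They carried pINDUCER-SMAD4, a lentiviral construct that makes SMAD4 when doxycycline (dox) is added, and by the labels every group, the untreated one included, shared this genotype and construct. Organoids were kept for 48 h with 4 ug/mL dox or left untreated, either inside BME, a basement membrane extract that supports growth in 3 dimensions, or on tissue culture plastic without it. The BME series holds lines 682, 700 and 889, each with an untreated library, and dox libraries of lines 700 and 889. Line 682 has a library labelled dox (Mock) in place of a dox library. The plastic series holds an untreated and a dox library for each of lines 560, 700 and 889. Each line is an organoid culture from tumor tissue, so the libraries of a line share their origin, and dox was compared with the untreated library of the same line as well as between groups.

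When the intestinal epithelium is injured, part of it leaves the adult program of crypt stem cells and turns on genes that are otherwise active before birth. Genes of this state include Anxa1, an annexin that binds membranes and phospholipids and limits inflammation, Clu, which encodes the secreted chaperone clusterin and marks the rare revival stem cells of the damaged crypt, and Il33, an alarmin of the IL-1 family that is kept in the nucleus. Spp1 encodes osteopontin, a secreted ligand of integrins and CD44. Gja1 encodes connexin 43, a subunit of gap junctions, and Msln encodes mesothelin, a protein anchored to the cell surface. Il1rn encodes the antagonist that blocks the IL-1 receptor, and Ccnd1 encodes cyclin D1, which drives CDK4 and CDK6 in G1. SMAD4 is the common partner of the SMAD proteins activated by TGFβ and BMP receptors and binds short GTCTG or CAGAC boxes in DNA, while TEAD factors, the partners of YAP, bind CATTCC and AP-1 binds TGACTCA.

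The windows at the annotated start sites of Il33 and Spp1 are shown because Il33 was higher in every dox pair and Spp1 had the largest differences within a pair of the 8 genes. The sequences are RefSeq windows of 300 bases in GRCm38.p6, from 250 bases before to 50 bases after a start site, both genes lying on the plus strand. Capitals mark exact matches, on either strand, to the pair of SMAD boxes GTCTAGAC, to the short SMAD box GTCTG (its reverse strand reads CAGAC), to the TEAD motif CATTCC (reverse strand GGAATG) and to the AP-1 motif TGACTCA (reverse strand TGAGTCA). The pair of boxes holds no short box as spelled here.

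Il33, chr19:29924863-29925162: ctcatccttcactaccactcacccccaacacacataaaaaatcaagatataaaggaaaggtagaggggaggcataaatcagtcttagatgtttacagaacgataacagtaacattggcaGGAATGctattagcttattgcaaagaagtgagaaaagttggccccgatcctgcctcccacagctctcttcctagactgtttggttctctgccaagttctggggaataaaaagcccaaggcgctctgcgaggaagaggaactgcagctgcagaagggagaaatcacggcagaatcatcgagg

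Il33, chr19:29945540-29945839: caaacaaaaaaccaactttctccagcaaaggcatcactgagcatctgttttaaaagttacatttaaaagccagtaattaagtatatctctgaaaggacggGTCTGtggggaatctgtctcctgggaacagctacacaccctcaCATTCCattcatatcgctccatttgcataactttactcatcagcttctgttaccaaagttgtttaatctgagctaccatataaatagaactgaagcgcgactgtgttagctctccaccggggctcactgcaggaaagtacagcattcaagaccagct

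Spp1, chr5:104434861-104435160: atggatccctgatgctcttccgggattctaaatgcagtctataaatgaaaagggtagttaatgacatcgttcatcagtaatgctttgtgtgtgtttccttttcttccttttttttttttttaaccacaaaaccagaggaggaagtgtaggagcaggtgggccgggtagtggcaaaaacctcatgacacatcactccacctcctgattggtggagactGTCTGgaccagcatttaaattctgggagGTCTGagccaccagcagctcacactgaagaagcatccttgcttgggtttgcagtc

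Spp1, chr5:104435942-104436241: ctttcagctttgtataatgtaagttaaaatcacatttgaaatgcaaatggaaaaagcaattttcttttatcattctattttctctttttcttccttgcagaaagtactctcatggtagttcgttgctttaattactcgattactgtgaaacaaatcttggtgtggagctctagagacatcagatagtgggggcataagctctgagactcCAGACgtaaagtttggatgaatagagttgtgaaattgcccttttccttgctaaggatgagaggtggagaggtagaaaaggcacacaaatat

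The upstream Il33 window held a TEAD motif and the downstream one held both a short SMAD box and a TEAD motif. Both Spp1 windows held a short SMAD box, with 2 copies in the upstream one, the later beginning 5 bases before the start site. Such boxes are common, since 49.6% of the 32851 windows of the same length held GTCTG or CAGAC, 14.7% held the TEAD motif, 5.2% the AP-1 motif and 0.213% the pair of SMAD boxes. Windows were found for 5 of the 8 genes (Anxa1, Gja1, Il1rn, Il33 and Spp1), and the AP-1 motif was present in that of Gja1 and in 1 of the 3 windows of Il1rn. The short SMAD box was also in the Anxa1 window and in all 3 windows of Il1rn. The TEAD motif was also in the Anxa1 window and in 1 window of Il1rn. No window of the 5 genes held GTCTAGAC. In NCBIM37, the assembly also called mm9, GENCODE vM1 places the members, all protein-coding, on chromosome 19 from 20447918 to 20465434 (Anxa1) and from 29999604 to 30035194 (Il33), on chromosome 14 from 66587320 to 66600385 (Clu), on chromosome 5 from 104864137 to 104870069 (Spp1), on chromosome 10 from 56097106 to 56110225 (Gja1), on chromosome 17 from 25885559 to 25891272 (Msln), on chromosome 2 from 24192373 to 24207014 (Il1rn) and on chromosome 7 from 152115836 to 152125774 (Ccnd1).

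Smad4 was read first, as a check of the labels. Untreated organoids in BME had 7.22 ± 1.45 FPKM (SD, n = 3), and those given dox 22.3 ± 7.09 FPKM (SD, n = 2). The same groups on plastic had 3.09 ± 1.61 FPKM (SD, n = 3) and 46.9 ± 27.8 FPKM (SD, n = 3). The mock library stood at 10.3 FPKM beside 8.88 FPKM in the untreated library of its line. It is counted with the controls, as the study counts it, and its pair is given apart. From the steps between low values, the libraries hold an estimated 14000000 to 17200000 reads in BME and 16700000 to 22200000 on plastic. The epithelial label held in every library, with 10 epithelial markers summing to 4240 FPKM or more in each, although Cdx1, an intestinal transcription factor, was listed at 0 in 8 of 12. In BME this sum lay between 7921 and 9864 FPKM with dox and between 4240 and 5244 FPKM untreated, with 4892 FPKM in the mock library, and its part in the changes below was not tested. Markers of other cells were low. The 8 fibroblast markers summed to at most 5.83 FPKM in any library and the 5 muscle markers to at most 2.27 FPKM. For endothelium (5 markers) the highest sum was 4.14 FPKM. The 8 immune markers reached 39.5 FPKM, mostly from Cd68, while the macrophage marker Adgre1 was listed at 0 in all 12 libraries.

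No member passed the test in either environment. limma on log2(FPKM + 1) required a change larger than 1 in size and an adjusted p below 0.05. It called 0 of 8 members in BME, where 0.0231% of the 12996 genes tested were called, and 0 of 8 on plastic, where 0.0324% of 12333 genes were. At an unadjusted p under 0.05 and any size, 0 of 8 members passed in BME (4.09% of all genes tested) and 0 of 8 on plastic (8.29%). These counts depend on single libraries. Without untreated line 700, 3 of 8 passed in BME, beside 618 of 12996 genes. Without dox line 700, 2 of the 7 tested passed on plastic, beside 925 of 12364 genes. The dox and control libraries overlapped for every member in both environments. Among all genes tested, 6.33% had both BME dox libraries above and 5.83% below all 4 controls, and 7.87% and 7.26% did so on plastic. What follows therefore gives the direction per line and the size of each change beside the spread between lines. In such bulk samples, fewer cells of a type and less RNA per cell cannot be told apart. All changes are differences on the log2(FPKM + 1) scale, which understates the change of low genes.

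**Figure D1:**
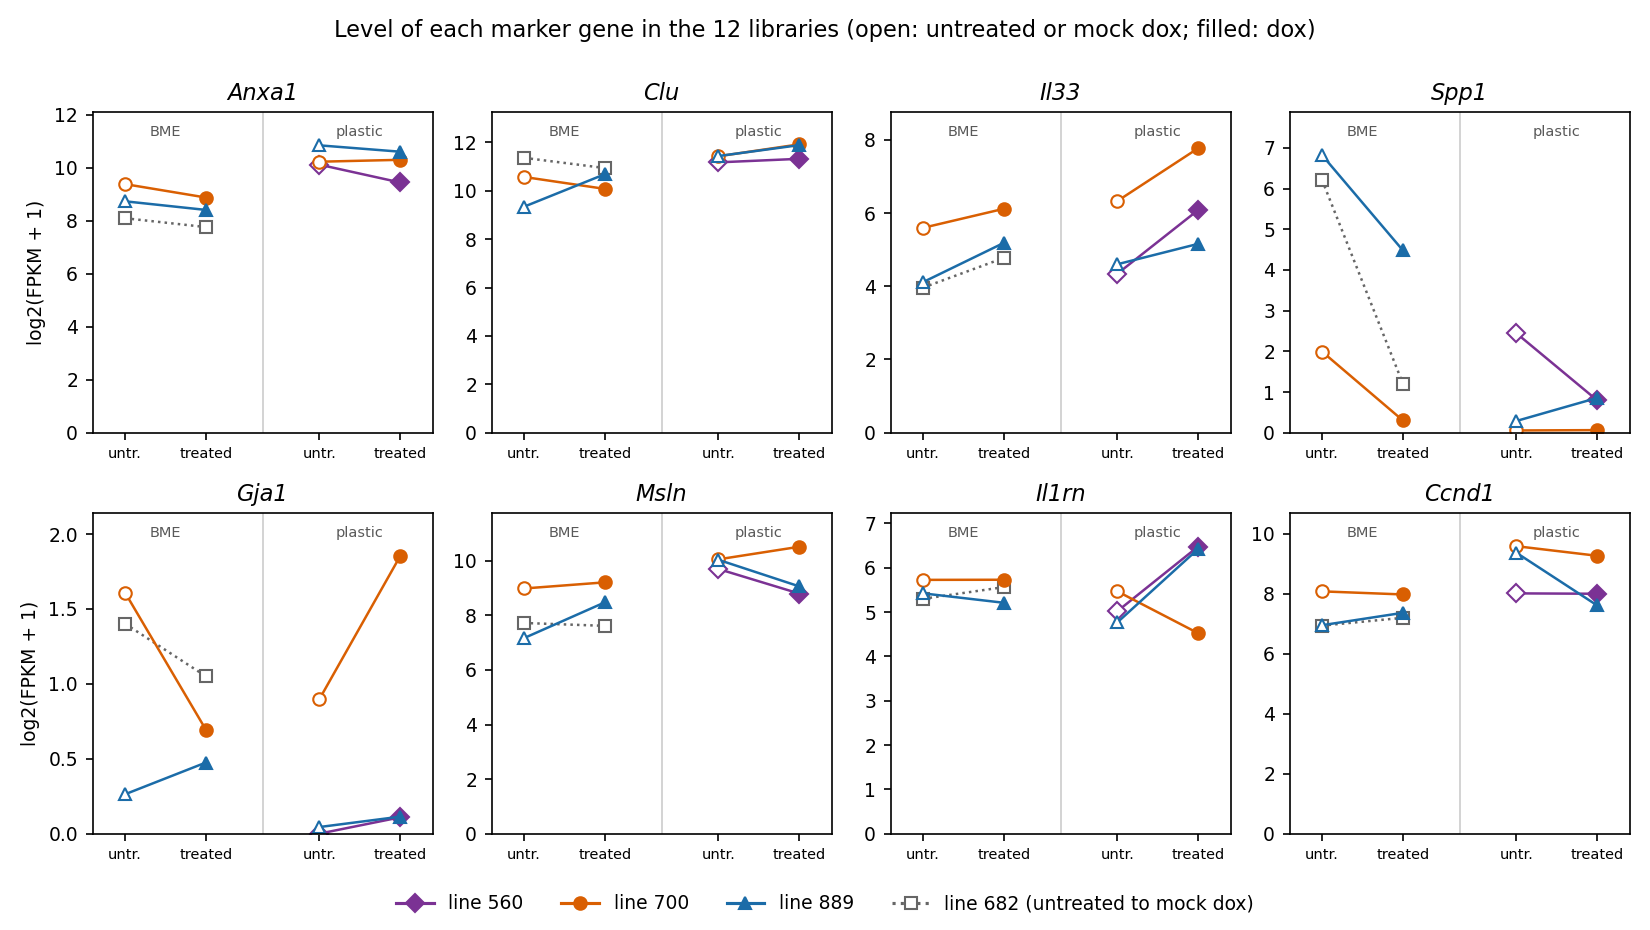
Level of each of the 8 genes in the 12 libraries, as log2(FPKM + 1) on the vertical axis, with the untreated and treated library of a line joined. Open symbols are untreated or mock dox, filled symbols are dox, and the dotted line joins the untreated and mock dox libraries of line 682. Il33 is higher at the treated end of all 6 lines drawn, and for most genes the lines lie further apart than their ends.

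Il33, the alarmin that calls type 2 immune cells through its receptor ST2, was higher with dox in all 5 dox pairs. Its BME levels were 14.6 (line 682), 47.3 (700) and 16.3 FPKM (889) untreated, 68.4 (700) and 35.4 FPKM (889) with dox, and 26.4 FPKM after mock dox (682). Its plastic levels were 19.2, 79.2 and 23.3 FPKM untreated and 66.8, 217 and 34.7 FPKM with dox in lines 560, 700 and 889. Every dox library lay above its untreated partner, but the groups overlapped, since untreated line 700 was above dox line 889 in both environments. The ratio of dox to untreated was 1.44 and 2.17 in BME and 3.47, 2.74 and 1.49 on plastic, with a mean change of 1.07 ± 0.54 (SD, n = 5 pairs). By limma Il33 differed by 1.04 in BME (SE 0.51, adjusted p 0.959) and by 1.25 on plastic (SE 0.78, adjusted p 0.741). Leaving out 1 library moved these values to between 0.57 and 1.51 in BME and between 0.53 and 1.87 on plastic, both lowest without the dox library of line 700. When same-line libraries were blocked, Il33 reached an unadjusted limma p of 0.0490 in BME and 0.00574 on plastic, with adjusted p-values of 0.673 and 0.201, so it was still not called. In the blocked fits 963 of 12996 genes in BME and 1664 of 12333 on plastic passed an unadjusted p under 0.05. Of the 11977 genes tested in both tables, 8.7% were higher in all 5 dox pairs. The mock pair had a ratio of 1.81, and 6.85% of genes were higher in all 5 dox pairs and in the mock pair.

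Spp1, which encodes osteopontin, had the widest span of the 8 genes. Untreated BME organoids had 73.4 (line 682), 2.99 (700) and 112 FPKM (889), dox organoids 0.232 (700) and 21.3 FPKM (889), and mock dox organoids 1.31 FPKM (682). It was lower with dox in both BME pairs, by ratios of 12.9 in line 700 and 5.27 in line 889, and the value of dox line 700 rests on an estimated 4 reads. The largest difference was in the mock pair, where the untreated library was 56.1 times the mock library. Because untreated line 700 was far below dox line 889, the groups overlapped, and the limma change of -1.67 (SE 1.998, adjusted p 0.963) was smaller than its error. Without the dox library of line 700 it was 0.42. On plastic Spp1 was near the lower limit of detection in lines 700 and 889, with 0.0391 FPKM in the untreated and 0.0452 FPKM in the dox library of line 700 (an estimated 1 read each), and 0.220 and 0.810 FPKM in line 889 (an estimated 6 and 18 reads). Line 560 was the exception, with 4.46 FPKM before dox and 0.737 FPKM after it. On plastic the limma change of Spp1 was -0.36 (SE 0.65, adjusted p 0.930), and the direction was not shared by the 3 lines. It was -0.10 without dox line 700 and -0.80 without untreated line 700, and Spp1 missed the filter on low values without untreated line 560.

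Anxa1, the annexin of fetal and repairing epithelium, was among the most abundant genes in every untreated library. The untreated lines 682, 700 and 889 had 272, 666 and 424 FPKM in BME, where dox gave 468 (700) and 338 FPKM (889) and mock dox 216 FPKM (682). On plastic Anxa1 had 1108, 1196 and 1837 FPKM untreated and 695, 1257 and 1555 FPKM with dox in lines 560, 700 and 889. It was lower with dox in 4 of 5 pairs, the exception being line 700 on plastic (ratio 1.05), and lower in the mock pair as well. The mean over the 5 dox pairs was -0.33 ± 0.28 (SD). In BME the direction depends on how the lines are handled. It was 0.15 by limma without a block (SE 0.46, adjusted p 0.984), where line 682, the lowest, is only in the control arm. A block for the line gave -0.42 (SE 0.17, adjusted p 0.677). For plastic it was -0.28 (SE 0.38, adjusted p 0.897), and 0.06 without the dox library of line 560.

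Clu, which encodes clusterin, was the most abundant of the 8 genes in each group. BME levels were 2627 (line 682), 1518 (700) and 647 FPKM (889) untreated, 1078 (700) and 1645 FPKM (889) with dox, and 1960 FPKM after mock dox (682). The BME pairs went opposite ways, lower by a ratio of 1.41 in line 700 and higher by 2.54 in line 889. On plastic the values were 2307, 2744 and 2763 FPKM untreated and 2552, 3863 and 3778 FPKM with dox in lines 560, 700 and 889, so all 3 pairs were higher with dox, by ratios of 1.11, 1.41 and 1.37. The dox library of line 560 lay below the untreated libraries of the other lines, and the groups overlapped. limma gave a change of -0.17 for BME (SE 0.56, adjusted p 0.985) and 0.36 for plastic (SE 0.29, adjusted p 0.807). The BME value turned positive (0.43) with the line as a block, and the plastic value was 0.56 without dox line 560 and 0.26 without dox line 700.

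Msln, a surface protein of mesothelium that many carcinomas also make, went opposite ways in the 2 environments in line 889. Organoids in BME had 210 (line 682), 505 (700) and 142 FPKM (889) untreated, 591 (700) and 355 FPKM (889) with dox, and 195 FPKM after mock dox (682). Both BME dox pairs were higher, by ratios of 1.17 and 2.49, and the mock pair was not (0.929). Organoids on plastic had 831, 1060 and 1049 FPKM untreated and 444, 1460 and 534 FPKM with dox in lines 560, 700 and 889, so that it was lower in lines 560 and 889 and higher in line 700. The Msln change by limma was 0.97 in BME (SE 0.51, adjusted p 0.959) and -0.47 on plastic (SE 0.47, adjusted p 0.846). The BME value was 0.61 without dox line 700 and 0.48 with the mock library counted as dox, and the plastic value ran from -0.14 without dox line 560 to -0.999 without dox line 700. Blocking on the line gave 0.77 for BME (SE 0.28, unadjusted limma p 0.0399, adjusted p 0.673). In that fit 963 of the 12996 genes tested passed an unadjusted p under 0.05. The 4 other markers of mesothelium summed in BME to 0.328 to 2.98 FPKM untreated and 0.362 to 5.37 FPKM with dox, and on plastic to 0.695 to 11.3 FPKM and 0.119 to 4.21 FPKM. Of these, Wt1 was listed at 0 in 11 of 12 libraries, and Upk3b had a mean of 2.13 FPKM over the 12.

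Il1rn, the antagonist of IL-1 signaling, had the most even level in BME. Untreated values there were 38.3 (line 682), 51.9 (700) and 41.8 FPKM (889), dox values 52.0 (700) and 36.0 FPKM (889), and the mock value 46.2 FPKM (682). On plastic the untreated libraries of lines 560, 700 and 889 stood at 31.4, 43.3 and 26.2 FPKM and the dox libraries at 88.1, 22.0 and 84.8 FPKM. Dox libraries of lines 560 and 889 were above every untreated library, by ratios of 2.81 and 3.24 to their own partners, while dox line 700 was below all 3 at a ratio of 0.508. Il1rn differed by -0.03 in BME (SE 0.20, limma adjusted p 0.993) and by 0.73 on plastic (SE 0.55, adjusted p 0.794). Without the dox library of line 700 the plastic change was 1.37, with a limma adjusted p of 0.194, and without dox line 560 or dox line 889 it was 0.39 or 0.42.

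Ccnd1, the G1 cyclin, was highest in line 700 in BME with and without dox. Lines 682, 700 and 889 had 121, 268 and 122 FPKM untreated, lines 700 and 889 had 250 and 163 FPKM after dox, and line 682 had 145 FPKM after mock dox. On plastic Ccnd1 had 256, 763 and 657 FPKM untreated and 254, 611 and 194 FPKM with dox in lines 560, 700 and 889. It was lower in all 3 plastic pairs, but by a ratio of 0.295 in line 889 and of 0.991 in line 560, so the groups overlapped. limma put the Ccnd1 change at 0.38 for BME (SE 0.37, adjusted p 0.959) and -0.70 for plastic (SE 0.57, adjusted p 0.811). Without 1 library the BME value ran from 0.0731 (no dox line 700) to 0.68, and the plastic value from -0.36 (no dox line 889) to -1.19.

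Gja1, the gap junction gene, was the least abundant of the 8 by its mean over the 12 libraries (0.803 FPKM). Its BME values were 1.64 (line 682), 2.05 (700) and 0.200 FPKM (889) untreated, 0.617 (700) and 0.390 FPKM (889) with dox, and 1.07 FPKM after mock dox (682), from an estimated 10 to 93 reads. On plastic it was listed at 0, 0.861 and 0.0311 FPKM untreated and at 0.0786, 2.61 and 0.0819 FPKM with dox in lines 560, 700 and 889. Only line 700 held more than 5 estimated reads on plastic (52 untreated and 140 with dox), so the positive sign of all 3 pairs rests on few reads in lines 560 and 889. For Gja1 limma gave -0.50 in BME (SE 0.40, adjusted p 0.959) and 0.38 on plastic (SE 0.54, adjusted p 0.903). Leaving out 1 library gave -0.32 (no untreated line 700) to -0.77 (no untreated line 889) in BME and 0.22 (no untreated line 560) to 0.67 on plastic, where Gja1 missed the filter on low values without dox line 700. A pseudocount of 0.1 gave -0.85 and 0.94.

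**Figure D2:**
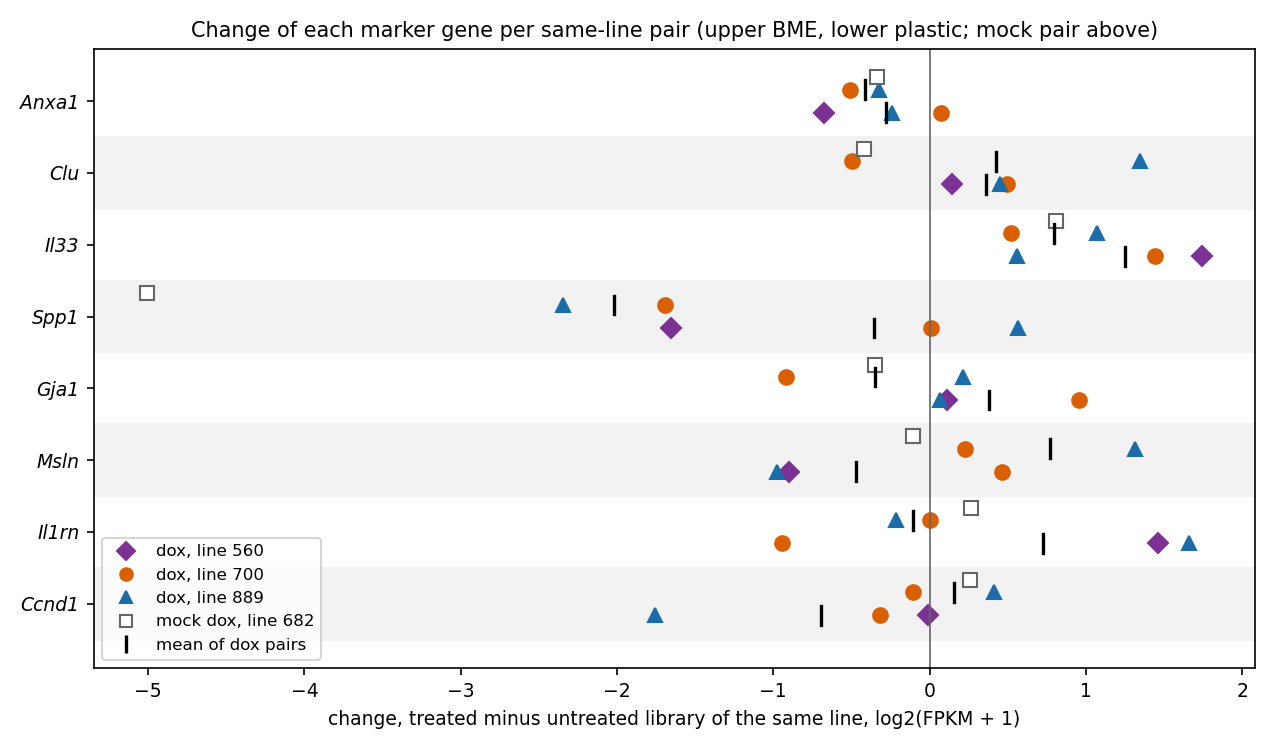
Change of each gene per same-line pair, treated minus untreated, on the log2(FPKM + 1) scale. For each gene the upper row holds the BME dox pairs, the lower row the plastic dox pairs and the open square above them the mock dox pair of line 682, with black bars for the mean of the dox pairs. Of the 8 genes Il33 alone has all 5 dox pairs and the mock pair on 1 side of 0 on this scale.

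The 8 genes had no common direction. In BME, 2 of 8 were higher in both dox pairs (Il33 and Msln) and 2 of 8 lower in both (Anxa1 and Spp1), beside 27.2% and 29.5% of all genes tested. On plastic, 3 of 8 were higher in all 3 pairs (Clu, Il33 and Gja1) and 1 of 8 lower (Ccnd1), beside 18.6% and 18.7%. The plastic direction of Gja1 rests on few reads in lines 560 (an estimated 0 untreated and 5 dox) and 889 (2 and 4). Gja1 also passed the plastic filter on low values only with the dox library of line 700, at 2.61 FPKM. Its place in this count is therefore not read as a shared direction. Over both environments 1 of 8 was higher in all 5 pairs (Il33) and 0 of 8 were lower in all 5, beside 8.06% of genes that were lower. With upper quartile scaling Anxa1 was lower in all 5 as well. Nothing particular to the 8 genes is read from these counts. The median change of the 8 members by limma was 0.06 in BME and 0.04 on plastic, where the medians of all genes tested were -0.01 and 0.01.

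The mock pair of line 682 moved the same way as both BME dox pairs for 3 of the 4 members that had a shared direction there. Il33 was higher in all 3 BME pairs, as were 17.6% of genes tested, and Anxa1 and Spp1 were lower in all 3, as were 18.4%. Most genes with a shared direction did likewise. Of the 3540 genes higher in both dox pairs, 2290 were also higher in the mock pair. Of the 3829 lower in both, 2397 were also lower in it. The mock pair differed little in Smad4 (given above), while the dox pairs of lines 700 and 889 had ratios of 2.64 and 4.38. With 1 mock pair, of a line that has no dox library, differences that go with SMAD4 and those that go with dox itself cannot be told apart.

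The spread between organoid lines was compared with the dox change. In BME the range over the 3 untreated lines was larger than the mean dox change for 8 of 8 members, as it was for 87.6% of genes tested, and on plastic for 5 of 8 (81.2% of genes), the exceptions being Clu, Msln and Il1rn. For Il33 the untreated range was 1.63 in BME and 1.99 on plastic, beside mean dox changes of 0.80 and 1.25. Line 700 was the highest untreated line for 6 of 8 members in BME and for 5 of 8 on plastic, where 33.4% and 29.5% of all genes tested had their highest untreated value in that line. Il33, Gja1, Msln, Il1rn and Ccnd1 did so in both environments. Spp1 did the reverse and was lowest in line 700 in both. Line 560 on plastic was the lowest for 6 of 8 members, beside 42.2% of all genes. In the 4 matched comparisons of lines 700 and 889 (untreated and dox, BME and plastic), Il33, Gja1, Msln and Ccnd1 were higher in line 700 each time, which 18.7% of genes were, and Spp1 was lower each time, which 17.7% were. The 4 comparisons share 2 lines, so they describe these lines and not lines in general.

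The environments were compared by rank, because each table was normalized on its own libraries. The rank is the percentile of a gene among all 24906 genes of its library. Anxa1 stood between 98.9% and 99.4% in untreated BME libraries and between 99.6% and 99.9% in untreated plastic libraries, and Msln between 97.7% and 99.3% against 99.4% and 99.8%. These 2 of 8 members had all 3 untreated plastic libraries above all 3 untreated BME libraries, which 18.2% of genes tested in both tables had, and 0 of 8 had them all below (15.3%). The two-sided exact permutation test gave p = 0.1 for both, the smallest value that 3 against 3 libraries allow. Within lines 700 and 889, untreated and dox, 5 of 8 members ranked higher on plastic in 4 of 4 comparisons (Anxa1, Clu, Il33, Msln and Ccnd1), beside 29.6% of genes. Spp1 ranked lower in 4 of 4, as did 27% of genes, and its untreated mean was 83.7% in BME and 51.8% on plastic (exact permutation p = 0.2). Il1rn and Gja1 were each higher in 1 and lower in 3. For Il33 the untreated ranges were 77.6% to 91.7% in BME and 83.7% to 95.5% on plastic, which overlap (exact permutation p = 0.4).

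**Figure D3:**
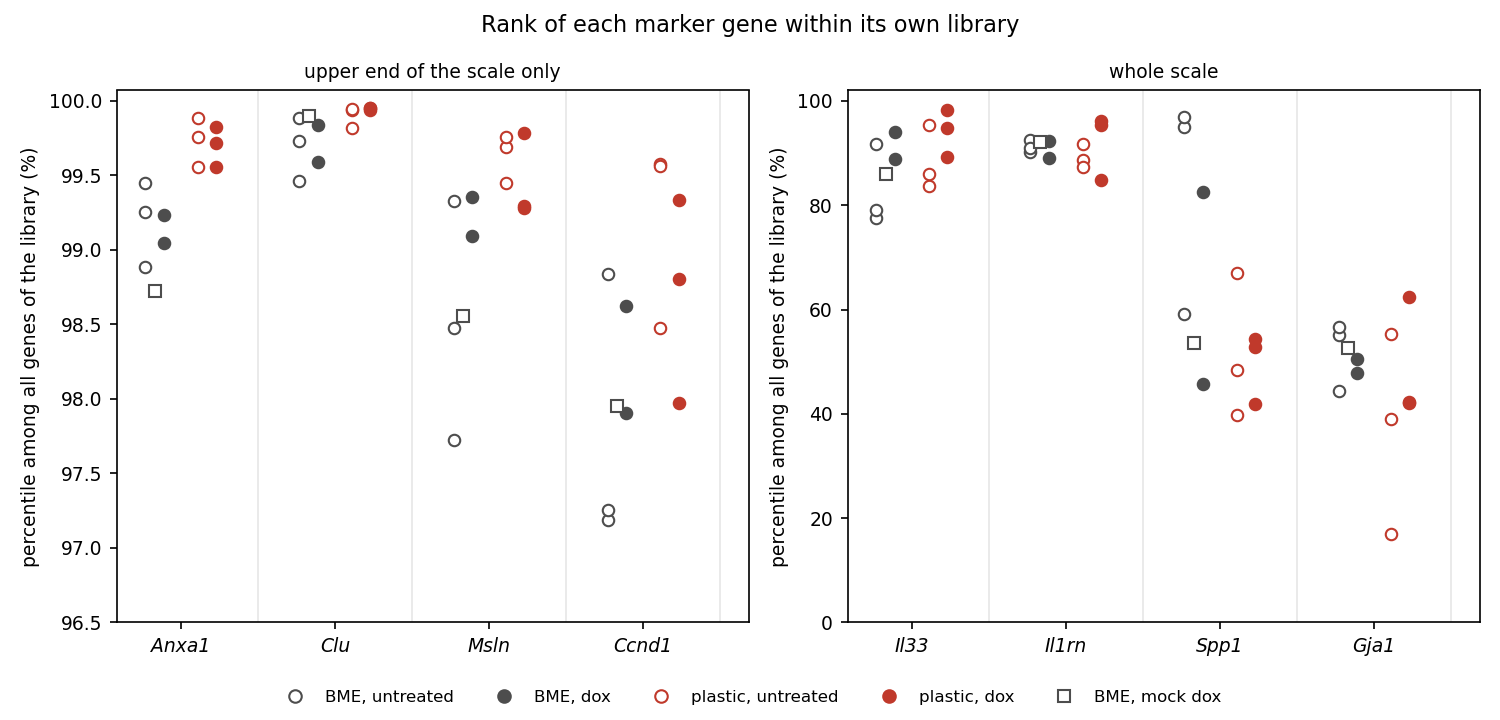
Percentile of each gene among all genes of its own library, in BME (grey) and on plastic (red), with open symbols for untreated, filled symbols for dox and a square for the mock dox library. The left panel shows only the upper end of the scale, where the plastic libraries of Anxa1 lie above those in BME, and the right panel shows the whole scale, where Spp1 ranks lower on plastic in lines 700 and 889.

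The change with dox was then compared between the environments as an interaction. limma called 0 of 8 members and 0% of the 11977 genes tested in both tables (9 genes, all lower, without the filter on low values), and at an unadjusted p under 0.05 0 of 8 members passed, beside 2.53% of genes. Without the plastic dox library of line 700, 3 of the 7 members tested passed it (Il1rn, Msln and Ccnd1), beside 444 of 11998 genes. The largest member differences were -1.44 (SE 0.74, adjusted p 1.000) for Msln, which differed by 0.97 in BME and -0.47 on plastic, 1.31 (SE 2.23, adjusted p 1.000) for Spp1 and -1.08 (SE 0.75, adjusted p 1.000) for Ccnd1. For Msln the blocked difference was -1.24 (SE 0.52, unadjusted limma p 0.0477, adjusted p 0.910), in a fit where 649 of 11977 genes passed an unadjusted p under 0.05. Il33 differed by 0.21 (SE 1.04, adjusted p 1.000). The standard errors of these differences ran from 0.63 to 2.23 over the 8 members. A missing call does not show that the environments act alike.

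The partners of the 8 genes were read next, from lists of ligands, receptors and relatives. limma called 0 members of any partner list in either environment. Of 3 IL-1 family ligands tested in each environment, 0 passed an unadjusted p under 0.05 in BME, beside 4.09% of all genes, and 1 was higher (Il1a) and 1 lower (Il18) on plastic, beside 8.29%. Il1a, the ligand that the product of Il1rn competes with, had the highest mean over the 12 libraries, although Il18 was higher in untreated BME organoids (mean 4.60 against 3.28 FPKM). Its BME levels were 2.68 (line 682), 4.17 (700) and 3.0 FPKM (889) untreated, 14.8 (700) and 26.5 FPKM (889) with dox, and 20.5 FPKM after mock dox (682). On plastic Il1a had 14.8, 85.5 and 43.7 FPKM untreated and 343, 454 and 1270 FPKM with dox in lines 560, 700 and 889. The dox libraries lay above all untreated libraries in both environments, and the mock library lay above them too. limma put the Il1a change at 1.71 for BME (SE 0.75, adjusted p 0.959) and 3.89 for plastic (SE 0.73, adjusted p 0.230). Il18, a ligand with its own receptor, differed by 0.41 in BME and -0.95 on plastic (limma adjusted p 0.970 and 0.562). The BME fit holds line 682 only as a control. Within lines 700 and 889 in BME Il18 changed by 0.28 and -0.90, and in the mock pair by -0.81. The receptor of IL-33, Il1rl1, was at or below 0.320 FPKM in all 6 BME libraries and between 0.271 and 2.87 FPKM on plastic. Sigirr, which damps IL-1 family signaling, was the highest of the 7 IL-1 family receptors listed, with a mean of 18.9 FPKM over the 12 libraries.

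Of the receptors of osteopontin, Itgb1, Cd44 and Itgav were the most abundant. Cd44 had 90.4 (line 682), 71.1 (700) and 109 FPKM (889) untreated in BME, 32.7 (700) and 74.8 FPKM (889) with dox, and 60.7 FPKM after mock dox (682). On plastic Cd44 had 82.9, 63.4 and 138 FPKM untreated and 139, 288 and 321 FPKM with dox in lines 560, 700 and 889. It was lower in both BME pairs and higher in all 3 plastic pairs, and the interaction was 2.07 (SE 0.61, limma adjusted p 1.000). Itgb1, the shared β1 subunit of many integrins, was higher in all 5 dox pairs and the mock pair, differing by 0.36 in BME (limma adjusted p 0.959) and by 0.87 on plastic (0.578). All 5 osteopontin receptors tested on plastic had positive changes, as had 51.1% of all genes, with a list median of 1.11 beside 0.01 for all genes, and 2 (Cd44 and Itgb1) passed an unadjusted p under 0.05, beside 8.29%. In BME 5 of 6 were positive, beside 49% of all genes, with a list median of 0.10, and 1 (Itgav, at 0.63) passed an unadjusted p under 0.05, beside 4.09%. The formyl peptide receptors of annexin A1 (Fpr1, Fpr2 and Fpr3) summed to at most 0.367 FPKM in any library. Among the other annexins, Anxa2, Anxa4 and Anxa3 were the most abundant, and 7 of 11 had positive changes on plastic (list median 0.13). In BME 10 of 11 were positive (0.22) in the fit that holds line 682 only as a control, whereas 6 of 11 were higher in both dox pairs (27.2% of all genes) and 2 lower (29.5%). In the mock pair 4 of 11 annexins were positive and 7 negative. At an unadjusted p under 0.05, 2 of 11 were higher in BME (Anxa2 and Anxa7), beside 4.09% of all genes, and 1 on plastic (Anxa7), beside 8.29%. Anxa7 was higher in all 5 dox pairs and in the mock pair.

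Among the partners of cyclin D1, Cdkn1a, which encodes the CDK inhibitor p21, had the highest mean over the 12 libraries, although Cdk4 and Ccnd2 had higher means without dox in both environments. BME values of Cdkn1a were 177 (line 682), 128 (700) and 71.8 FPKM (889) untreated, 565 (700) and 208 FPKM (889) with dox, and 324 FPKM after mock dox (682). On plastic Cdkn1a had 167, 197 and 143 FPKM untreated and 422, 704 and 804 FPKM with dox in lines 560, 700 and 889, and all 3 dox libraries lay above the untreated ones. Cdkn1a differed by 1.17 in BME (SE 0.65, limma adjusted p 0.959) and by 1.88 on plastic (SE 0.30, adjusted p 0.157). Of the 9 cyclin D partners, 1 was higher (Cdkn1a) and 4 lower (Ccnd2, Cdk6, Cdkn2a and Cdkn2b) at an unadjusted p under 0.05 on plastic, beside 8.29% of all genes. In BME 0 were higher and 1 lower (Cdk6, at -0.37), beside 4.09%. Ccnd2, the paralog of Ccnd1, was also lower in all 3 plastic pairs, with changes of -0.27, -2.43 and -2.70 in lines 560, 700 and 889 (limma adjusted p 0.405). Its BME pairs went opposite ways, at -0.35 and 0.22. Of the other connexins, Gjb1, a gap junction subunit of epithelia, had a mean of 15.6 FPKM over the 12 libraries, above Gja1. The clusterin receptors Vldlr and Lrp8 had means of 12.3 and 4.68 FPKM, and Lrp2 was listed at 0 in all 12 libraries. Of the mesothelin list, Mslnl, the paralog, had a mean of 0.394 FPKM.

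A list of 24 further genes of the fetal-like and regenerative state was tested in the same fits. 0 of 24 were called in either environment. In BME 17 of 24 had positive changes, with a median of 0.25 beside -0.01 for all genes, and on plastic 10 of 24, with a median of -0.28 beside 0.01. At an unadjusted p under 0.05, 5 of 24 were higher and 0 lower in BME, where 4.09% of all genes passed in either direction, and 2 were higher and 2 lower on plastic, where 8.29% passed. In BME line 682 was only in the control arm of this fit. Within lines, 6 of 24 were higher (27.2% of all genes) and 7 lower (29.5%) in both BME dox pairs, and the mean of these pairs was positive for 13 of 24, with a median of 0.071. In the mock pair 9 were positive and 15 negative. The 5 were Anxa2, Krt7, Plaur, S100a6 and Tnfrsf12a, each higher in both BME dox pairs, and 3 of them (Anxa2, Plaur and Tnfrsf12a) also in the mock pair. By the mean of the 5 dox pairs, the largest positive values were those of Plaur (1.196 ± 0.667, SD) and Cldn4 (0.68 ± 0.68), of which Plaur, the urokinase receptor, was higher in 5 of 5. The largest negative values were those of Ly6a (-1.81 ± 1.12) and Sprr1a (-1.69 ± 1.86). Ly6a, which encodes the surface protein SCA-1 used to mark the repairing epithelium, was lower in 5 of 5 dox pairs and in the mock pair. On plastic it had 3184, 1625 and 2119 FPKM untreated and 705, 135 and 718 FPKM with dox in lines 560, 700 and 889, a limma change of -2.44 (SE 0.69, adjusted p 0.454). In BME its change was -0.11 (limma adjusted p 0.993) without a block, beside -0.93 and -0.83 within lines 700 and 889. Sprr1a, a precursor of the cornified envelope, stood at 6549, 4109 and 5201 FPKM untreated on plastic and at 1308, 203 and 1344 FPKM with dox (change -2.87, SE 0.75, limma adjusted p 0.412). Genes of the list went both ways, and Il33 and Ly6a had opposite signs in all 5 dox pairs.

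Of the 16 adult crypt stem cell genes, 15 were tested in each environment. In BME 14 of 15 had negative changes, with a median of -0.48 beside -0.01 for all genes, and 10 of 15 were lower in both BME pairs (29.5% of all genes). Of these 10, 5 were also lower in the mock pair, beside 2397 of the 3829 genes lower in both BME pairs. The mean of the BME pairs was negative for 13 of 15, with a median of -0.35, and in the mock pair 7 were positive and 8 negative. 0 of 15 were called, and 4 passed an unadjusted p under 0.05 (Cdk6, Igfbp4, Lrig1 and Znrf3, all lower), beside 4.09% of all genes. Lgr5, the marker of the crypt base stem cell, measured 48.1, 43.0 and 71.1 FPKM untreated in BME (lines 682, 700 and 889) and 12.3 and 29.2 FPKM with dox in lines 700 and 889, and the mock library, at 15.7 FPKM, lay between the dox libraries. On plastic 8 of 15 had positive and 7 negative changes, with a median of 0.03, and 1 (Cdk6, lower) passed an unadjusted p under 0.05. Line 560 had 15.1 and 15.2 FPKM of Lgr5 without and with dox, and Lgr5 was at most 1.21 FPKM in the 4 plastic libraries of lines 700 and 889. By the mean of the 5 dox pairs, the largest positive values were those of Ephb2 (0.38 ± 0.69, SD), Prom1 (0.25 ± 0.44) and Znrf3 (0.08 ± 0.54). The largest negative values were those of Lgr5 (-0.50 ± 1.02), Cdk6 (-0.48 ± 0.28) and Rnf43 (-0.47 ± 0.33).

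**Figure D4:**
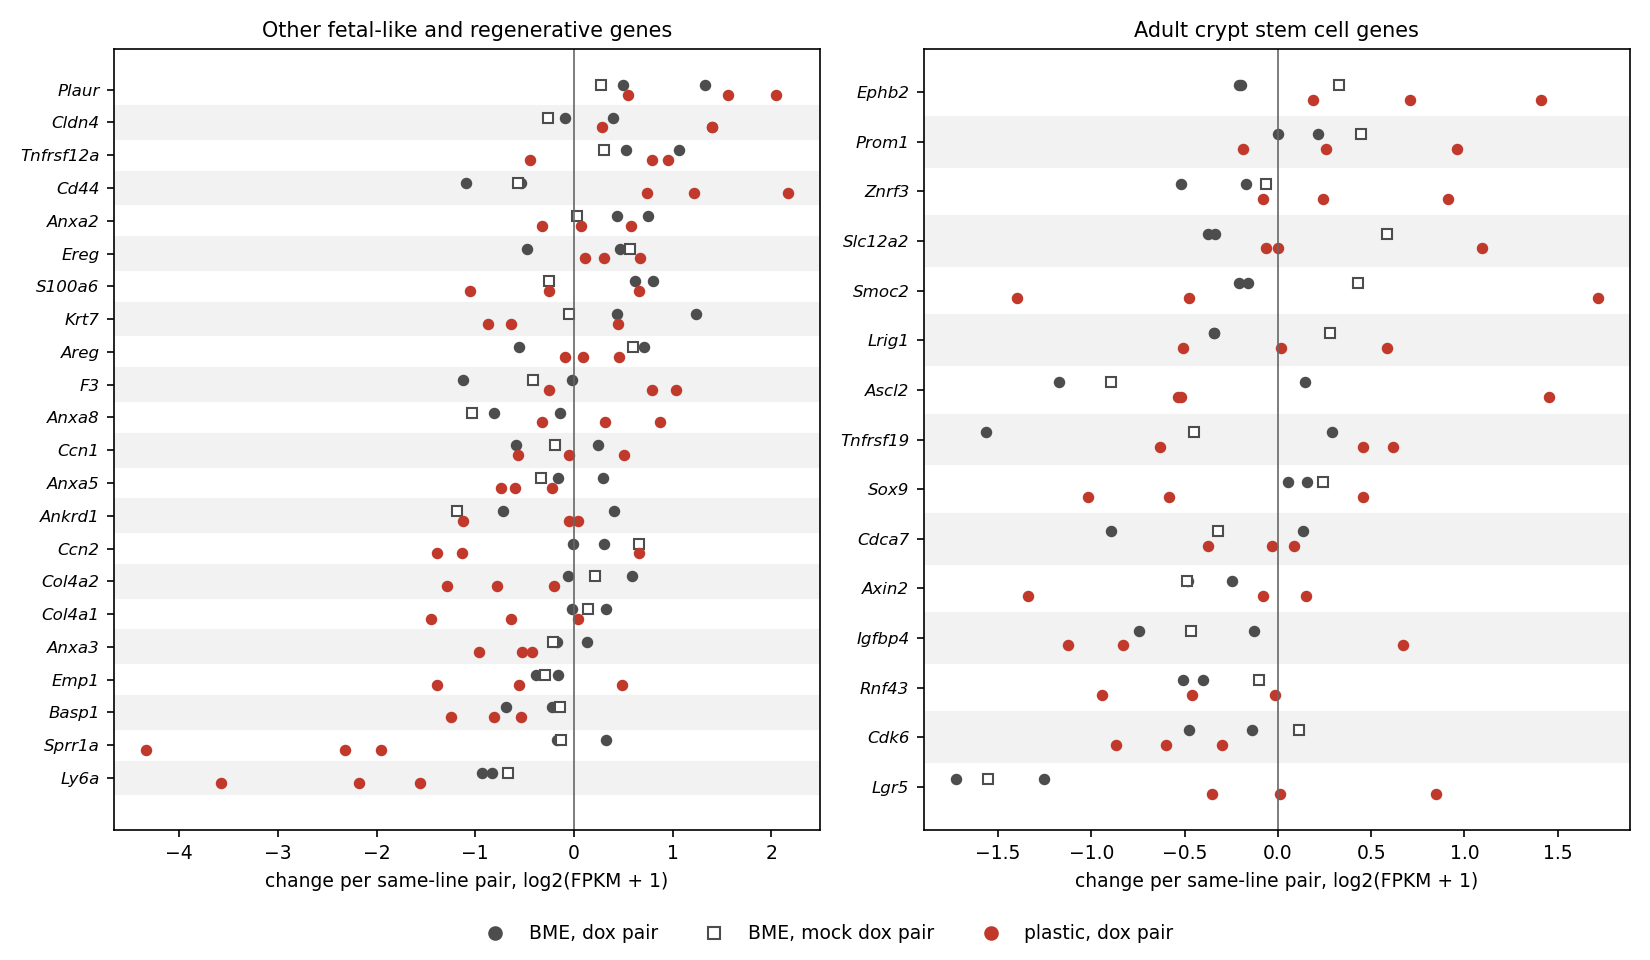
Change per same-line pair on the log2(FPKM + 1) scale for the other fetal-like and regenerative genes that are reported here (left) and the 15 adult crypt stem cell genes tested (right), ordered by the mean of the 5 dox pairs. Grey circles are BME dox pairs, red circles plastic dox pairs and open squares the mock dox pair. Ly6a and Sprr1a lie furthest left on plastic, Plaur lies right of 0 in every pair, and most adult stem cell genes lie left of 0 in BME.

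Likeness between genes was measured over the 12 libraries. With each table centred on its own mean, Msln and Ccnd1 were the pair most alike (Pearson r 0.81, Spearman rho 0.75), and Il33 followed Gja1 at 0.63 and Spp1 at -0.60. These values share libraries and lines and are given as a description. Outside the 8 genes, Krt7 (r 0.93) and Map6 (0.94) were most like Msln, Unc119b (0.96) and Ano1 (0.95) most like Ccnd1, and Birc3 (0.92) and Slco2a1 (0.90) most like Il1rn. For Il33 these were LOC102632231 (0.95) and Slc35d1 (0.93), for Anxa1 Gbp8 (0.90) and Ppp1r13l (0.89), for Clu Fam120aos (0.86) and Zfp189 (0.84), for Spp1 Neurog3 (0.92) and Ppp1cc (0.90), and for Gja1 Ptpdc1 (0.94) and Vstm2l (0.92). Krt7 is a keratin of simple epithelium and is also in the fetal-like list above.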

How the data were processed

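RNA-Seq was available for 12 libraries of pINDUCER-SMAD4 tumor organoids. The authors ran kallisto on the reads and DESeq2 for their comparisons, per the study's methods and the submitters' processing notes, which also name the mouse build mm9. Versions and annotation are not given in the sources used here. The authors deposited FPKM values in 1 table per environment, each normalized on its own 6 libraries. The authors' deposited comparison tables hold mean values, log2 fold changes, errors and p-values of dox against no dox and were not used. FPKM corrects for transcript length and depth but not for a change in RNA composition, and no counts were used. Each library is 1 culture of a line, so p-values measure the spread between these lines and libraries.

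A gene entered the test where its mean in a table reached 0.5 FPKM. Values were used as log2(FPKM + 1), where 1 is the pseudocount, with limma 3.58.1 (R 4.3.3, lmFit and a two-sided eBayes with a trend), for 2 dox against 4 control libraries in BME (the mock library counted as control) and 3 against 3 on plastic. Adjustment was by Benjamini-Hochberg over all genes tested. The interaction was fitted with a term for the environment. Single ranks were compared with exact permutation tests. The script was tested on simulated data. The labels of the line 682 mock library conflict, since mock appears in its treatment while its title and genotype are those of the induced organoids.

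The line number pairs the libraries because it names the same organoid line. Deviations from group means correlated between the dox and untreated libraries of a line with r = 0.744 in BME (2 lines, so the same value for both) and r = 0.461, 0.612 and 0.247 for lines 560, 700 and 889 on plastic. The fit without a block is given as the main one since the methods state none.

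Reads were estimated from the lowest values of genes under 0.5 FPKM in all libraries of a table and from GENCODE vM1 transcript lengths less a fixed fragment length. The members and gene lists were chosen with earlier results of these data known, so no list is independent evidence. Named list genes are up to 3 per partner list by mean FPKM. For 2 lists they are the 3 highest and 3 lowest means of the 5 dox pairs among genes tested, less those not reported here. Genes at an unadjusted p under 0.05, Il1rl1 and Lgr5 were named after their values were seen. A few list genes count in the totals but are not reported here by name. Older symbols were matched through RefSeq, where Ctgf and Cyr61 are listed as Ccn2 and Ccn1. The alternatives were another pseudocount and filter, the replicate block, upper quartile scaling, eBayes without trend, other treatments of the mock library, and leaving out each library.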

Additional observations from a re-analysis of the deposited data

Results flagged for a closer look

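Ccnd1 in the BME control arm was the only value set apart from its group by Dixon's rule, which compares the gap to the nearest sample with the range of the group. The untreated library of line 700 stood at 268 FPKM, while the mock library and the untreated libraries of lines 682 and 889 stood at 145, 121 and 122 FPKM. The ratio of gap to range was 0.836 on the FPKM scale, just above the limit for 4 samples, and 0.772 on the log2 scale, below it. Of the 8 genes tested in this arm 1 passed, and the rule flags about 5% of groups by chance. Msln, at 0.814, was just under the limit, with the same library highest.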

How the results depend on the processing

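No member was called under any alternative. Over them the adjusted p ran from 0.641 to 1.000 in BME, 0.194 to 0.999 on plastic and 0.767 to 1.000 for the difference between environments. Directions reversed in 12 of 103, 1 of 92 and 10 of 155 member alternatives, and the causes were not tested.

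Genes called in BME went from 3 to 1 with a pseudocount of 0.1 and to 0 with a filter at a mean FPKM of 2, with the replicate block, without the mock library and with it counted as dox, and ran from 0 to 37 when 1 library was left out (37 without the dox library of line 700). Without a BME dox library, 1 dox library is left, its spread is taken to be that of the controls, and these calls rest on the control spread alone. On plastic 4 became 10 with a pseudocount of 0.1, 0 without a filter and 7 with the replicate block, and leaving out 1 library gave 0 to 55 (55 without the dox library of line 700). For the difference between environments 0 became 9 without a filter, and stayed at 0 under the other alternatives.

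In BME Anxa1 became -0.42 with the replicate block, -0.0949 without the mock library and -0.39 with it counted as dox (-0.0949 to 0.45 leaving out 1 library). Clu became 0.43 with the replicate block and 0.14 with the mock library as dox (-0.58 to 0.13 leaving out 1), and Il1rn 0.0179 with the mock library as dox (-0.29 to 0.23). Spp1 ran from -3.76 without dox line 889 to 0.42 without dox line 700. Anxa1 on plastic ran from -0.53 to 0.0555. The difference between environments for Anxa1 became 0.14 with the replicate block, 0.11 with the mock library as dox and 0.33 in lines 700 and 889 alone, and that of Clu -0.0624 with the block. Leaving out 1 library it ran from -0.51 to 0.83 for Il33 and from -0.78 to 3.402 for Spp1. The block changed no call of a member.

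Counts without 1 library or pair were chosen after seeing the data. Members whose groups did not overlap were 0 to 4 in BME (4 without dox line 889, beside 50.3% of genes) and 0 to 3 on plastic (3 without dox line 700, beside 24.1%). Members with 1 direction in all dox pairs were 1, or 2 with upper quartile scaling (Anxa1 and Il33, beside 17.7% of genes), and 1 to 3 without 1 pair (3 without the BME pair of line 700, 22.8%). On plastic alone these were 4 to 7 (7 without line 700, 50.5%). With lines 700 and 889 alone, 5 members rather than 2 had ranks on plastic that did not overlap those in BME, beside 62.5% of genes. Depth limits Spp1 and Gja1, which rest on few reads in several libraries.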
